A study of Mus musculus with 4 samples.

Results

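The genes described here are 9 mouse transcription factor genes, namely Zic1, Zic2, Zic4, Zic5, Otx2, Pou3f1, Sall2, Foxd3 and Sox3, out of 23235 gene symbols measured. They were picked by name, as Zic family genes and factors of the formative or primed epiblast that were said to move in opposite directions under RDF, so the contrast of RDF with DMSO itself chose them. Their values in that contrast are therefore given as a description, with no test and no p-value. HG165 is 1 line of androgenetic haploid embryonic stem cells (haESCs), that is, stem cells carrying only a paternal set of chromosomes. The control group was HG165 cells given DMSO, the solvent (2 libraries). The other group was HG165 cells given RDF (2 libraries). RDF combines Repsox, an inhibitor of TGFβ pathways, DMH1, an inhibitor of BMP receptors, and Forskolin, which activates adenylyl cyclase and so raises cAMP. Both groups share the haploid line and, by the general culture protocol, an ES medium with serum and LIF. The line is kept on feeder cells, but by the methods most experiments were done without them, and the RNA sequencing is not among the uses of feeders that they name. Doses, length of treatment, and the share of cells still haploid at harvest are not given for these libraries in the sources used here. Nothing says that the 2 libraries of a group came from separate cultures, so the spread between them may be technical.

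Zic genes encode zinc finger transcription factors that act in the early epiblast, in gastrulation and in the dorsal neural tube. Pluripotent cells pass from a naive state, like that of the preimplantation epiblast, through a formative state to a primed state. Otx2 and Pou3f1 (also called Oct6) are among the factors switched on during that passage, and Otx2 redirects Pou5f1 to new enhancers. Foxd3 and Sox3 are also expressed in pluripotent cells, and Sall2 belongs to a family of zinc finger factors whose relative Sall4 sustains embryonic stem cells.

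As the genes were picked on this contrast, their directions are described here and not checked. Levels of Zic2, Zic5 and Foxd3 were higher in both RDF libraries than in both DMSO libraries, and levels of Otx2, Sall2 and Sox3 were lower in both. Of all genes tested, 65.5% likewise did not overlap, so this alone sets no gene apart. For Foxd3 the group difference was about that between the RDF libraries, and for Sox3 about that between the DMSO libraries. The values of Pou3f1, Zic1 and Zic4 overlapped between the groups. Of the Zic genes, Zic2 and Zic5 were thus higher with RDF, and the low levels of Zic1 and Zic4 set no direction. Levels are in FPKM, sequenced fragments scaled to transcript length and to the number of mapped fragments, so that levels can be compared between genes. All levels come from bulk RNA, in which fewer cells of a kind and less RNA per cell cannot be told apart.

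The Zic genes are similar in their zinc finger region. Whether reads of one could be taken for those of another depends on the read length, so the sequence that they share is shown first. The 60 coding bases below lie in the zinc finger region and read 5′ to 3′ on the coding strand, from the mouse genome build NCBIM37 (mm9), the build of the deposited files. Capitals mark bases that differ from Zic1.
Zic1: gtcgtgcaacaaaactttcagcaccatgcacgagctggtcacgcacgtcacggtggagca
Zic2: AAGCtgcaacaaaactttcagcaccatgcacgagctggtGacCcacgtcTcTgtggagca
Zic4: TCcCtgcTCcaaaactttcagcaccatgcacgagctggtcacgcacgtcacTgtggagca
Zic5: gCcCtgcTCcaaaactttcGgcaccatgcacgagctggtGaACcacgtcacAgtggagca

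In this stretch Zic4 differed from Zic1 at 6 bases, Zic2 at 8 and Zic5 at 9. The window of Zic2 lies in exon 1 of 3 on chromosome 14 (chr14:122875707-122875766, plus strand), and that of Zic5 in exon 1 of 2 (chr14:122863317-122863376, minus strand). The windows of Zic1 (chr9:91259077-91259136, minus strand) and Zic4 (chr9:91273978-91274037, plus strand) are on chromosome 9. The longest run of bases that the transcripts of Zic1 and Zic4 share was 42 nucleotides, and that of Zic1 and Zic2 was 35. That of Zic2 and Zic5 was 36, a plain repeat of the letters gt. Of all windows of 50 nucleotides in the longest transcript of each of these 4 genes, 0 occurred on the same strand in the annotated transcripts of another coding gene. The same held for Otx2, Pou3f1, Sall2 and Sox3, while 19 of 2324 such windows of Foxd3 (0.818%) also occurred in Foxd4. Opposite strands were not compared, so sharing between Zic1 and Zic4, whose genes overlap on opposite strands, was not tested. The length of the reads, and how those mapping to several genes were handled, are not given in the sources used here.

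Zic2, a transcription factor of early neural and midline development, had the highest level of the 9 genes under RDF. It was at 7.01 and 6.62 FPKM in DMSO replicates 1 and 2 and at 15.2 and 14.8 FPKM in RDF replicates 1 and 2. Both RDF values were more than the spread between replicates above both DMSO values. The means were 6.82 ± 0.273 FPKM with DMSO and 15.0 ± 0.312 FPKM with RDF (SD, n = 2 each), a 2.2-fold higher level with RDF. On the log2(FPKM + 1) scale on which all differences below are given, the difference was 1.03, and it ranged from 1.00 to 1.07 when each library was left out in turn.

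Zic5, the neighbour of Zic2 in the genome and a factor of neural crest and forebrain development, was at 3.10 and 3.35 FPKM with DMSO and at 6.41 and 6.53 FPKM with RDF. The groups did not overlap, and the RDF libraries lay closer together than the DMSO libraries. The means were 3.23 ± 0.178 and 6.47 ± 0.0781 FPKM (SD, n = 2 each), with a log2 difference of 0.82, or 0.78 to 0.87 when each library was left out in turn. The ratio of the Zic2 level to the Zic5 level was 2.26 and 1.98 in the DMSO libraries and 2.37 and 2.26 in the RDF libraries. The ratios of DMSO replicate 1 and RDF replicate 2 were alike to the digits given.

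The other pair of Zic genes was barely detected. Zic1, a factor of the cerebellum and dorsal neural tube, was at 0.633 and 0.517 FPKM with DMSO and at 0.639 and 0.430 FPKM with RDF, and the groups overlapped. Its estimated fragments numbered between 27.3 and 44.7 per library. Zic4, which acts with Zic1 in cerebellar development, was listed at 0 in both RDF libraries and DMSO replicate 1, and at 0.0218 FPKM in DMSO replicate 2, an estimated 0.928 fragments. Neither gene passed the filter on low values, a 4-library mean of 1 FPKM or more, which 11733 genes passed.

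**Figure D1:**
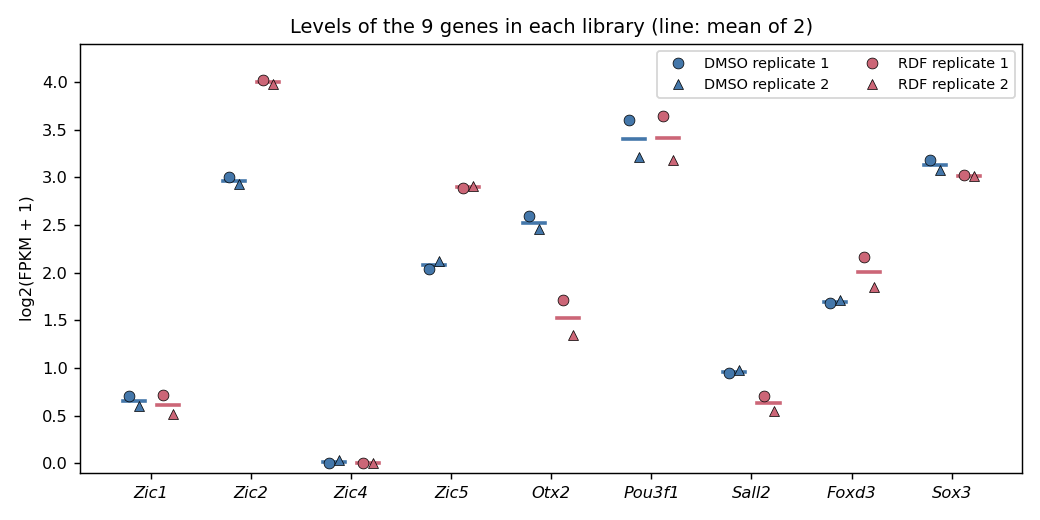
Levels of the 9 genes, with log2(FPKM + 1) on the vertical axis, in the 2 DMSO and 2 RDF libraries (points) with the mean of each group (line). Zic2 and Zic5 lie higher in both RDF libraries, Otx2 lies lower in both, and the 2 libraries of each group are farther apart for Pou3f1 than the group means are.

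Otx2, a homeodomain factor of the formative epiblast and the anterior neural plate, differed in the other direction. It was at 5.03 and 4.51 FPKM with DMSO and at 2.27 and 1.54 FPKM with RDF. Both RDF values lay below both DMSO values, and the RDF libraries were farther apart than the DMSO libraries. The means were 4.77 ± 0.363 and 1.91 ± 0.516 FPKM (SD, n = 2 each), so the RDF level was 0.399 times that with DMSO, and the log2 difference was -1.0. Leaving out each library in turn gave -1.18 to -0.82. The RDF values rest on an estimated 64.7 and 39.9 fragments. The ratio of the Zic2 level to the Otx2 level was 1.39 and 1.47 with DMSO and 6.70 and 9.58 with RDF.

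Sall2, the family member known from the nervous system and from growth control, was at 0.928 and 0.965 FPKM with DMSO and at 0.635 and 0.462 FPKM with RDF. The groups did not overlap, with a log2 difference of -0.33, but the mean over the 4 libraries was below the filter of 1 FPKM. The values rest on an estimated 27.0 to 54.5 fragments per library.

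Pou3f1, a POU factor of the epiblast and of Schwann cells, did not differ between the group means by more than its replicates did. It was at 11.2 and 8.26 FPKM with DMSO and at 11.5 and 8.06 FPKM with RDF. The log2 difference between the groups was 0.0043, while the 2 libraries within a group differed by 0.39 with DMSO and 0.46 with RDF. Replicate 1 was the higher library in both groups. When each library was left out in turn, the difference ran from -0.23 to 0.24, so these data do not set its direction.

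Foxd3, a forkhead factor needed for the epiblast and the neural crest, was at 2.21 and 2.27 FPKM with DMSO and at 3.49 and 2.61 FPKM with RDF. The groups did not overlap, but the RDF libraries differed by 0.32 on the log2 scale, as much as the groups did (0.31). Its difference was 0.16 without RDF replicate 1 and 0.47 without RDF replicate 2. Sox3, an X-linked relative of Sox2 expressed in the epiblast and in neural progenitors, was at 8.07 and 7.44 FPKM with DMSO and at 7.13 and 7.08 FPKM with RDF. Its log2 difference of -0.11 was close to the 0.11 between its DMSO libraries, and it was -0.058 without DMSO replicate 1.

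Among the 9 genes, 6 passed the filter. The groups did not overlap for 6 of the 9, with 3 higher and 3 lower, and for 5 of the 6 that passed the filter. Of all genes tested, 65.5% did not overlap, 37.1% with RDF above and 28.5% below. As the genes were chosen on this contrast, nothing is read from these counts. The median log2 difference was -0.02 over the 9 genes, 0.16 over the 6 that passed the filter and 0.03 over all genes tested. In size, 1.41% of the genes tested differed by more than 1 on the log2 scale, and 2.38% differed by as much as Zic5 or more. These shares too are a description and not a test.

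**Figure D2:**
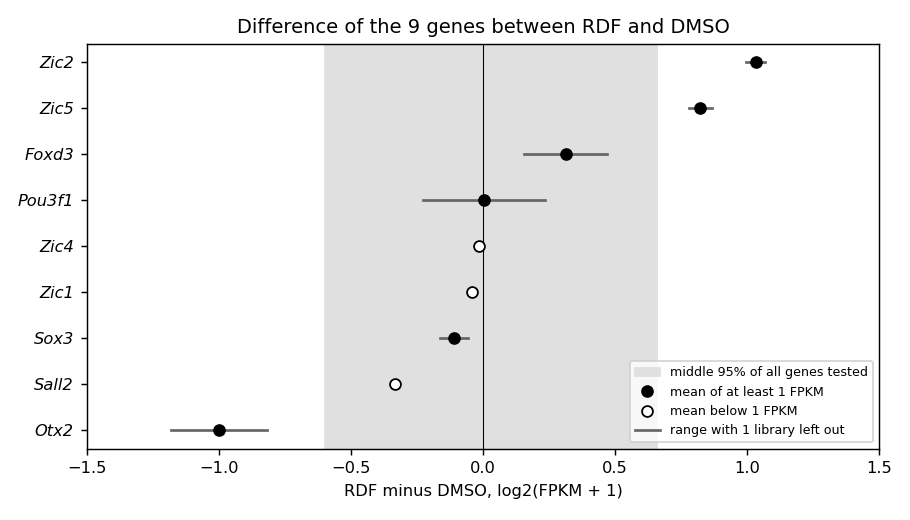
Difference between RDF and DMSO on the log2(FPKM + 1) scale (horizontal axis) for each of the 9 genes (vertical axis), with the range when 1 library is left out as a line and the middle 95% of all genes tested, from -0.60 to 0.66, shaded. Zic2 and Zic5 lie beyond the shaded range on the right and Otx2 on the left, and open points mark genes with a mean below 1 FPKM. As the genes were chosen on this contrast, their place against the shaded range is a description and not a test.

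The order of the levels differed between the groups. With DMSO it ran from Pou3f1 through Sox3, Zic2, Otx2, Zic5, Foxd3, Sall2 and Zic1 down to Zic4, and the ranges of neighbours in that order did not overlap. With RDF it ran from Zic2 through Pou3f1, Sox3, Zic5, Foxd3, Otx2, Sall2 and Zic1 down to Zic4. There the ranges of Sall2 and Zic1 overlapped and those of the other neighbours did not. Zic2 was the third of the 9 with DMSO and the first with RDF, and Otx2 was the fourth with DMSO and the sixth with RDF.

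Of the 9 genes, 4 lie on chromosome 14 in build NCBIM37. Zic2 (chr14:122874604-122879074, plus strand) and Zic5 (chr14:122856017-122864899, minus strand) are transcribed away from each other, with start sites 9705 bases apart. Otx2 (chr14:49277354-49287319, minus strand) and Sall2 (chr14:52930847-52948437, minus strand) lie elsewhere on that chromosome. Zic1 (chr9:91252896-91260648, minus strand) and Zic4 (chr9:91257251-91284186, plus strand) overlap by 3398 bases on opposite strands. The library kit keeps the strand, but whether the counting used it is not given in the sources used here, so reads in the overlap cannot be assigned with certainty. Foxd3 (chr4:99322990-99325362, plus strand) and Pou3f1 (chr4:124334896-124337899, plus strand) share chromosome 4, and Sox3 (chrX:58144545-58146605, minus strand) is on the X chromosome.

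The measured coding genes nearest to Zic2 and Zic5 were compared in the same way. Clybl, which encodes a mitochondrial lyase, differed by -0.07 (adjusted p = 0.469 with limma), and Pcca, a subunit of propionyl-CoA carboxylase, by 0.18 (adjusted p = 0.235). A2ld1 differed by -0.27 (adjusted p = 0.190), Tmtc4 by 0.25 (adjusted p = 0.122) and Tm9sf2 by -0.03 (adjusted p = 0.775). None of these 5 neighbours passed the threshold. Gm5089, the nearest gene to the pair, was below the filter but higher in both RDF libraries. It was at 0.225 and 0 FPKM with DMSO and at 0.712 and 0.385 FPKM with RDF. Among neighbours of the other members, only Naa30 and Rragc were called, while 21.6% of all genes tested were. Naa30 rose by 0.25 (adjusted p = 0.0339 with limma), with its start at -504582 bases from that of Otx2. Rragc rose by 0.46 (adjusted p = 0.00416 with limma), with its start at -740207 bases from that of Pou3f1. Negative distances lie before the start of the member. The tested neighbours closer to Otx2 or Pou3f1 did not pass the threshold.

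**Figure D3:**
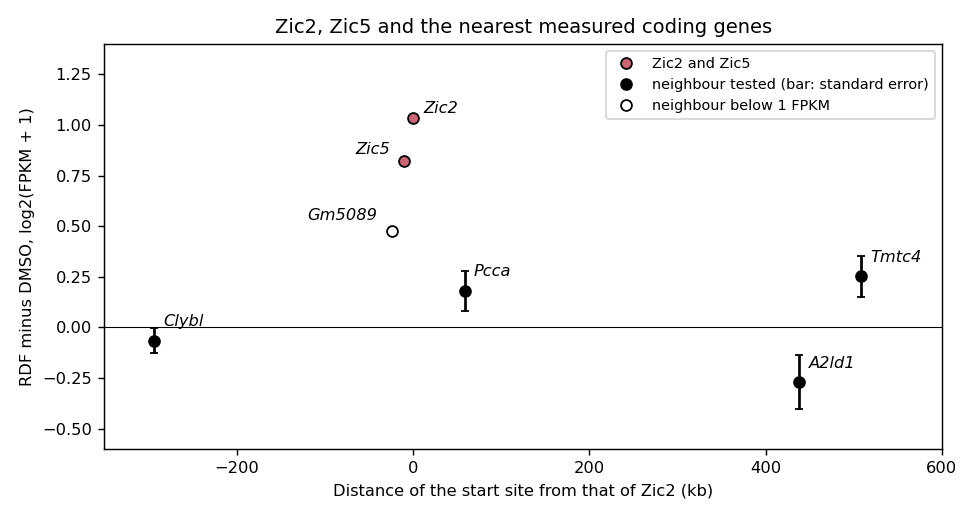
Difference between RDF and DMSO on the log2(FPKM + 1) scale (vertical axis) against the distance of each gene's start site from that of Zic2 in kb (horizontal axis), with the standard error as a bar for neighbours that were tested. Zic2 at 1.03 and Zic5 at 0.82 stand above the tested neighbours drawn, which lie between -0.27 and 0.25. The open point is Gm5089, below the filter, at 0.48. Tm9sf2 is not drawn.

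Stretches before the start sites of 3 members are shown because the cocktail acts on receptors whose signals end in SMAD factors and on cAMP, whose signal ends in CREB. They come from RefSeq (build GRCm38.p6, with coordinates in that build), which lists 10 start sites for 6 of the 9 genes. No stretch was available for Zic2, Pou3f1 and Sox3, which were not searched. Each is the 250 bases before a start site, 5′ to 3′ in the direction of transcription, and capitals mark the letters TGACGTCA (the full cAMP response element), TGACG (its core) or CAGAC (the SMAD box) on either strand. The core is contained in the full element.
Zic5 (chr14:122465659-122465908, minus strand): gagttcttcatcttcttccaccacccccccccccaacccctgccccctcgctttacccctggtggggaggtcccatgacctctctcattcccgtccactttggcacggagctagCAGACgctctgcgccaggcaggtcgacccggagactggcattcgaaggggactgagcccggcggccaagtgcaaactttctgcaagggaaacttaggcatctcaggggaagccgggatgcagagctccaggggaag
Otx2 (chr14:48667509-48667758, minus strand, the second of 4 start sites): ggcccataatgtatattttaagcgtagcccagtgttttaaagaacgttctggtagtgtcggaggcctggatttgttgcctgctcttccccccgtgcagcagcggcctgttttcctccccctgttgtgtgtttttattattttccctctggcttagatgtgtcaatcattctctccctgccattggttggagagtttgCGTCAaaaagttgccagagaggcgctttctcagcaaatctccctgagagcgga
Foxd3 (chr4:99656049-99656298, plus strand): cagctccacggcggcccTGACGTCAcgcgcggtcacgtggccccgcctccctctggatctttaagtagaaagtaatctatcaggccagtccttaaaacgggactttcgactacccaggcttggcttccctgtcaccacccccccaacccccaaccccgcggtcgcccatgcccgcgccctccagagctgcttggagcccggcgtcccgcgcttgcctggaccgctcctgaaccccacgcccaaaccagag

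The stretch of Foxd3 held the full cAMP response element 233 bases before the start, which 1.55% of 32851 RefSeq promoters hold. The core stood 53 bases before the second start of Otx2, and 17.8% of promoters hold it. The SMAD box stood 136 bases before the start of Zic5, and 42.2% of promoters hold it. Zic4 held 1 SMAD box, while the starts of Zic1 and Sall2 and the other 3 starts of Otx2 held none of these letters. The letters GGCGCC were also searched and stood 189 bases before the start of Zic1, and 9.59% of promoters hold them. The FoxH1 motif TGTGNATT was found before 0 of the 10 starts, and 3.18% of promoters hold it. These matches are descriptions of the sequence and not evidence of binding.

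The relatives of the 9 genes in their own families were listed by family and tested in the fit across all genes (limma's moderated test with Benjamini-Hochberg adjustment over 11733 genes, called at an adjusted p under 0.05). Of all genes tested, 21.6% were called, 13.3% higher and 8.28% lower with RDF. Of 13 paralogs listed, 5 passed the filter, of which 3 rose and 2 did not pass the threshold, with a median log2 difference of 0.30 against 0.03 over all genes tested. Sall4, a zinc finger factor that sustains pluripotency, was at 29.5 and 28.4 FPKM with DMSO and 46.4 and 47.5 FPKM with RDF, and rose by 0.68 (SE 0.056, adjusted p = 0.00164 with limma). Sall1 was at 2.61 and 2.24 FPKM with DMSO and 4.23 and 3.59 FPKM with RDF, and rose by 0.52 (adjusted p = 0.0264 with limma). Both thus differed in the direction opposite to that of Sall2. Sox2, the relative of Sox3 that sustains pluripotency, rose by 0.26 (adjusted p = 0.0187 with limma), from 97.3 and 95.8 FPKM to 117 and 114 FPKM.

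The calls of Sall1 and Sox2 each ended when 1 library other than DMSO replicate 1 was left out. The adjusted p of Sall1 was then 0.0739 without DMSO replicate 2, 0.134 without RDF replicate 1 and 0.0771 without RDF replicate 2, and that of Sox2 was 0.0527, 0.108 and 0.0924. The call of Sall1 also ended with no filter (0.0729) and that of Sox2 with no mean-variance trend (0.0525). Sall3 differed by 0.30 (adjusted p = 0.113 with limma) and Foxd1 by 0.28 (adjusted p = 0.176). Otx1, the relative of Otx2, was below the filter, at 0.624 and 0.812 FPKM with DMSO and 1.38 and 0.972 FPKM with RDF. Crx, Pou3f2, Pou3f3, Pou3f4, Foxd2, Foxd4 and Sox1 were each below 1 FPKM in every library.

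Other genes of the formative state were mostly lower or did not pass the threshold. Of 20 listed, 18 passed the filter, of which 1 rose, 7 fell and 10 did not pass the threshold, with a median log2 difference of -0.19. Utf1, a chromatin factor of pluripotent cells, fell by 0.80 (adjusted p = 0.00192 with limma), from 262 and 237 FPKM to 146 and 138 FPKM. Tdgf1, which encodes the Nodal co-receptor Cripto, fell by 0.70 (adjusted p = 0.00281 with limma), from 509 and 488 FPKM to 292 and 322 FPKM. Dnmt3a, a de novo DNA methyltransferase, fell by 0.54 (adjusted p = 0.00498 with limma), from 16.4 and 16.5 FPKM to 10.7 and 11.3 FPKM.

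Fgf15, a secreted growth factor, was at 1.99 and 1.86 FPKM with DMSO and 0.895 and 1.08 FPKM with RDF, and fell by 0.56 (adjusted p = 0.0215 with limma). Etv4, an ETS factor downstream of FGF signalling, rose by 0.48 (adjusted p = 0.00654 with limma), from 44.7 and 49.4 FPKM to 65.3 and 67.1 FPKM. The call of Fgf15 ended without DMSO replicate 1 (adjusted p = 0.0631), RDF replicate 1 (0.112) or RDF replicate 2 (0.0821), and that of Etv4 without RDF replicate 1 (0.0521) or RDF replicate 2 (0.0625). Among those that did not pass, Tcf15 differed by -0.33 (adjusted p = 0.0891 with limma), Tcf7l1 by 0.24 (0.0808) and Pim2 by -0.14 (0.247). The count of formative genes that fell was 3 without RDF replicate 2, and 4 without RDF replicate 1 or without DMSO replicate 1.

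Naive pluripotency genes differed the other way. Of 15 listed and tested, 7 rose, 0 fell and 8 did not pass the threshold, with a median log2 difference of 0.31. Tet2, a DNA demethylation enzyme, rose by 0.92 (adjusted p = 0.00409 with limma), from 2.60 and 2.46 FPKM to 5.21 and 6.14 FPKM. Zfp42, also called Rex1, rose by 0.85 (adjusted p = 0.000836 with limma). Klf4, a reprogramming factor, rose by 0.55 (adjusted p = 0.00320 with limma). Nr0b1 (0.54, adjusted p = 0.00833) and Tfcp2l1 (0.48, adjusted p = 0.0129) rose as well in limma. Klf5 (0.05, adjusted p = 0.637), Esrrb (0.20, adjusted p = 0.0633) and Nanog (-0.06, adjusted p = 0.682) did not pass. The count that rose was 4 without RDF replicate 1 and 3 without RDF replicate 2. Nr0b1 was no longer called without RDF replicate 1 (adjusted p = 0.0677) or RDF replicate 2 (0.0663), nor was Tfcp2l1 without RDF replicate 2 (0.0658).

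**Figure D4:**
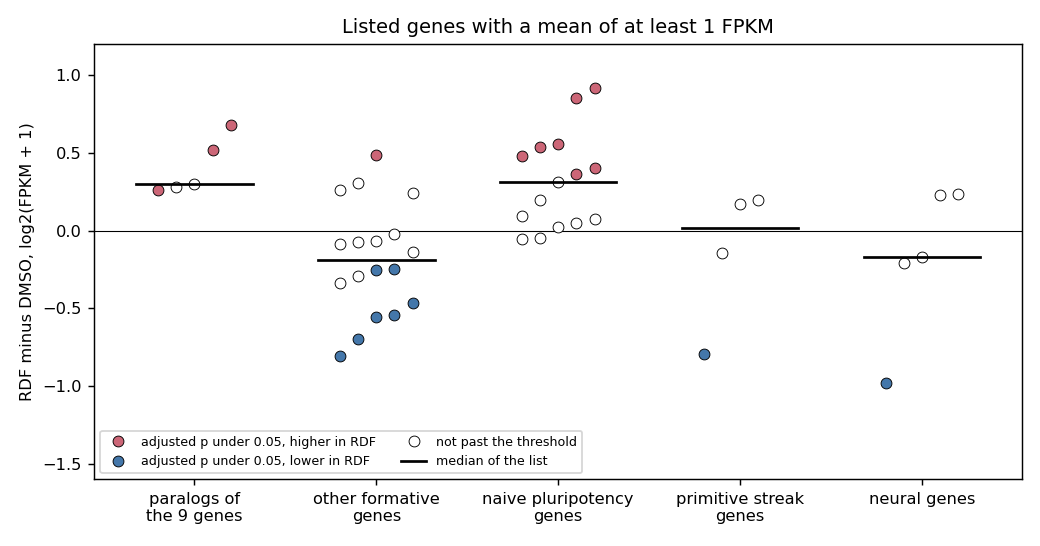
Difference between RDF and DMSO on the log2(FPKM + 1) scale (vertical axis) for the tested genes of 5 lists (horizontal axis), coloured by whether limma's adjusted p was under 0.05, with each list's median as a bar. The medians are 0.30 for the paralogs, -0.19 for other formative genes and 0.31 for naive pluripotency genes.

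Neural and primitive streak genes were tested because Otx2, Sox3 and the Zic genes are also expressed in those tissues. Of 14 neural genes listed, 13 were in the files and 5 passed the filter, of which 0 rose and 1 fell. Tubb3, a neuronal tubulin, fell by 0.98 (adjusted p = 0.00211 with limma), from 54.5 and 47.6 FPKM to 26.7 and 24.1 FPKM. Nes (-0.21, adjusted p = 0.142), En2 (-0.17, adjusted p = 0.341) and Lhx5 (0.23, adjusted p = 0.247) did not pass in limma. The other 8 neural genes were below the filter, and their highest value in any library was 0.671 FPKM. Of 12 genes in the primitive streak list, 4 passed the filter, of which 0 rose and 1 fell. That 1 gene was Cldn6, a tight junction protein that the paper counts among primed pluripotency genes, so its call is not particular to the streak. Cldn6 fell by 0.79 (adjusted p = 0.00507 with limma), from 35.4 and 37.8 FPKM to 18.8 and 22.8 FPKM. The other tested genes of the list, Eomes, Fst and Sp5, were not called. They differed by 0.17, -0.14 and 0.20, with adjusted p of 0.257, 0.570 and 0.610 in limma. The other 8 were below the filter and not tested, with a highest value of 1.63 FPKM in any library. Of these, 2 were lower and 2 were higher in both RDF libraries, and they are named after their values were seen. T (Brachyury) was at 1.63 and 1.27 FPKM with DMSO and at 0.333 and 0.401 FPKM with RDF. Mixl1 was at 0.278 and 0.348 FPKM with DMSO and at 0.0871 and 0.151 FPKM with RDF. Foxa2 was higher, at 0.232 and 0.310 FPKM with DMSO and at 0.641 and 0.576 FPKM with RDF. Gsc was higher as well, at 0.931 and 0.526 FPKM with DMSO and at 0.996 and 1.43 FPKM with RDF.

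Readouts of Nodal and BMP signalling were measured in the same libraries. Of the 12 genes listed, 2 rose, 4 fell and 6 did not pass the threshold. Lefty2, a Nodal antagonist and target, fell by 5.77 (adjusted p = 1.0e-06 with limma), from 120 and 115 FPKM to 1.15 and 1.19 FPKM. Lefty1 fell by 2.77 (adjusted p = 0.000291), Smad7 by 1.2 (0.000957) and Skil by 0.94 (0.00142) in limma, while Id3, known as a BMP target, rose by 1.66 (0.000823). Id1, another BMP target, differed by -0.05 (adjusted p = 0.639), Id4 by 0.38 (0.118) and Smad6 by -0.04 (0.785) in limma. The loss of Lefty2 was larger than the difference of any of the 9 genes.

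Markers of other cells moved with the groups too. For feeder cells, which the methods do not name as used for the RNA sequencing, the summed level of 9 fibroblast markers was 36.7 and 35.8 FPKM with DMSO and 23.0 and 24.4 FPKM with RDF. Of these 9, 6 passed the filter, of which 4 fell and 2 rose. Col1a1 fell by 1.76 and Postn by 1.71, while Dcn rose by 1.65 (adjusted p of 0.000577, 0.00164 and 0.00112 with limma). The summed level of 4 trophoblast markers was 5.25 and 4.83 FPKM with DMSO and 10.1 and 10.96 FPKM with RDF, and both that passed the filter rose, Gata3 by 1.08 (adjusted p = 0.00320 with limma) and Hand1 by 0.70 (0.00821). The call of Hand1 ended without RDF replicate 2 (adjusted p = 0.0658). The summed level of 6 primitive endoderm markers was 7.44 and 5.96 FPKM with DMSO and 9.87 and 10.5 FPKM with RDF. Of these, 2 passed the filter, and Gata6 rose by 0.78 (adjusted p = 0.0428 with limma), a call that ended without RDF replicate 1 (0.173) or RDF replicate 2 (0.165). The call of Gata6 also ended with a pseudocount of 0.1 (0.0502), no filter (0.114), median-ratio scaling (0.0511), quantile normalization (0.0620) and no trend (0.0613), and its difference was 0.46 without DMSO replicate 2. None of the markers in these 3 lists was at 0 in all 4 libraries. Their part in the values of the 9 genes was not tested.

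The stem cell identity of the libraries was checked on 7 markers, all of which passed the filter. Pou5f1, which encodes Oct4, was at 1285 and 1223 FPKM with DMSO and at 1031 and 939 FPKM with RDF, and fell by 0.35 (adjusted p = 0.0261 with limma). That call ended without RDF replicate 1 (adjusted p = 0.0837), without RDF replicate 2 (0.168) or with no filter (0.0697). Dppa5a fell by 0.86 (adjusted p = 0.00421 with limma), a call that ended without RDF replicate 2 (0.0602). Of the 7, 2 rose, 3 fell and 2 did not pass.

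The genes whose profile over the 4 libraries was nearest to each member were listed as a description, by the distance between centred log2(FPKM + 1) profiles over 11732 genes. The likeness rests on these 4 libraries alone. Nearest to Zic2 were Mycn (distance 0.0189), a Myc family factor at 13.5 and 13.0 FPKM with DMSO and 28.4 and 27.9 FPKM with RDF, then Cck (0.0640) and Dusp5 (0.0642). Nearest to Zic5 were Dtx1 (0.0346), Sema5a (0.0371) and Ralgds (0.0601). Otx2 had no gene as near, with H2-T9 at 0.148, Chst15 at 0.156 and Tubb3 at 0.162.

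The genes nearest to Pou3f1 were Rbmxl2 (distance 0.0736), 1810019J16Rik (0.101) and Rnf113a1 (0.103). All were higher in replicate 1 than in replicate 2 of both groups, as Pou3f1 was, and choosing by nearness favours this. Rbmxl2 was at 43.6 and 35.1 FPKM with DMSO and at 46.5 and 32.3 FPKM with RDF. Nearest to Foxd3 were Qprt (0.0160), Gm505 (0.0238) and Fam92a (0.0329), and nearest to Sox3 were Ghitm (0.0112) and Adhfe1 (0.0132).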

How the data were processed

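RNA was measured by stranded, poly(A)-selected RNA sequencing in 4 libraries, 2 given DMSO and 2 given RDF, grouped by their labels. The deposited values are FPKM per gene symbol, made by the authors with TopHat and Cufflinks on mm9; the submitters' processing notes name TopHat2 2.0.14, Bowtie2 2.1.0 and Cufflinks 2.2.1. FPKM carry no counts. Depth was estimated from the steps of low values, which is approximate (41.7% to 45.7% of such values lay within 0.1 of a whole fragment), at 9320000 to 12480000 fragments per library, and fragments given for a gene cover counting precision only.

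Values were compared as log2(FPKM + 1) for the 11733 of 23235 symbols with a mean of at least 1 FPKM, with limma 3.58.1 in R 4.3.3 (mean-variance trend, no replicate block, Benjamini-Hochberg adjustment, threshold 0.05). The pseudocount understates the change of low genes. An exact permutation test of 2 against 2 libraries cannot go below a two-sided p of 0.333, so none was run. The fit was tested on simulated data with the same spread for every gene and changes of at least 1 on the log2 scale. That run does not bear on smaller changes. The 9 genes and all lists were chosen with earlier results of these data known. Named genes were the 9 members, every listed paralog, in each other list up to 5 called genes with the largest change and up to 3 uncalled genes with the highest mean, and the 3 nearest profiles of each tested member. Neighbouring genes were added by position. A few genes these rules take in are not reported here and were left out of the list counts. Alternatives numbered 12: pseudocounts of 0.1 and 0.5, no filter, a filter of 5 FPKM, median-ratio scaling, quantile normalization, no trend, a replicate block, and each of the 4 libraries left out. Library correlations of log2 values were 0.986 within DMSO, 0.990 within RDF and 0.976 to 0.980 between them.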

Additional observations from a re-analysis of the deposited data

How the results depend on the processing

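Over all genes, 1561 were called higher and 972 lower, against 942 and 606 with no filter, and 311 to 1188 higher and 238 to 763 lower when 1 library was left out, the lone library being assumed to vary like the others. With no filter, 4 other formative genes and 2 genes of the primitive streak list, Cldn6 among them, were called lower. Leaving out 1 library gave 1 to 3 paralogs called higher, 0 to 2 other formative genes higher and 3 to 5 lower, and 3 to 7 naive genes higher. The log2 difference changed direction when 1 library was left out for genes near 0: Fst (0.073 without RDF replicate 2, the one such setting in which it passed the filter), Id1 (-0.13 to 0.018), Klf5 (-0.020 to 0.12), Nanog (-0.18 to 0.066) and Sp5 (-0.21 to 0.61). Zic2, Zic5 and Otx2 kept their direction, with differences from 0.97 to 1.12, from 0.75 to 0.98 and from -1.30 to -0.82 over the alternatives in which each was tested; a filter of 5 FPKM left out Zic5 and Otx2. Median-ratio and quantile scaling moved the median of all genes by -0.03 and -0.04 and changed no direction of these. The labels number the replicates but do not say that they pair the libraries. With the replicate number as a block, 1651 genes were called higher and 1066 lower, and Esrrb (adjusted p = 0.0406 in limma) and Tcf15 (0.0422) were called. Over genes, same-numbered libraries deviated together only weakly (Pearson 0.134, Spearman 0.114), and 2 pairs do not settle a pairing. Depth limits Zic1, Zic4 and Sall2, which rest on few fragments. It also limits Otx2 with RDF, at an estimated 64.7 and 39.9 fragments, and Foxd3 with DMSO, at 48.8 and 59.0.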
